A study of Mus musculus with 6 samples.

Results

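The genes described here are 41 mouse genes of the lysosome, chosen by name: lysosomal membrane proteins, hydrolases and their helper proteins, subunits of the V-ATPase proton pump, and the transcription factors Tfeb, Tfe3 and Mitf. Every one of the 41 symbols was found among the 19323 genes of the deposited table of normalized counts. RNA had been sequenced from splenic CD8+ T cells of wild-type C57BL/6 mice, 6 weeks old at the start, that received a diet labelled ND (3 libraries) or one labelled MCDHFD (3 libraries) for 7 weeks. The labels do not spell out the diet names, and the design text calls the mice models of MASH, fatty liver disease with inflammation. Neither the way the CD8+ T cells were isolated nor whether each library came from a separate animal is given in the sources used here, so the p-values measure the spread between these libraries, which may be technical.

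Lysosomes are acidic vesicles in which hydrolases take apart lipids, glycans, glycogen and proteins that arrive by endocytosis, phagocytosis or autophagy. The V-ATPase pumps protons across the lysosomal membrane and keeps the interior acid. Tfeb, Tfe3 and Mitf are related transcription factors that bind E-box letters in promoters of lysosomal genes and are held in the cytoplasm when the kinase complex mTORC1 is active. T cells carry lysosomes and lysosome-related cytotoxic granules, and macrophages are known for a large lysosomal compartment.

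The 6 libraries held between 13188812 and 15482458 reads, recovered from the deposited values, and 1 read was worth between 0.941 and 1.12 normalized counts. Libraries of the same diet correlated at 0.985 to 0.988 on the log2 scale, and libraries of different diets at 0.896 to 0.916. The CD8 T cell label was checked against 19 markers, all of which were detected in every library at 979 normalized counts or more, and all 19 were lower in MCDHFD. Cd8a itself stood at 14172, 13690 and 13491 in ND and at 5772, 4884 and 5135 in MCDHFD. Their summed share of the normalized counts was 0.864%, 0.861% and 0.873% in the ND libraries and 0.516%, 0.447% and 0.456% in the MCDHFD libraries. The summed share of 25 macrophage and monocyte markers was 0.442%, 0.530% and 0.511% in ND and 2.001%, 2.43% and 2.43% in MCDHFD. Of these 25 markers, 22 were higher and 2 lower in MCDHFD, and none was at 0 in any library. Csf1r, the receptor for the macrophage growth factor CSF1, stood at 8148, 9356 and 9249 normalized counts in ND and at 27713, 31052 and 34218 in MCDHFD. Vcam1, an adhesion molecule of splenic macrophages, stood at 11279, 13488 and 13019 in ND and at 50032, 60384 and 59748 in MCDHFD, while the values of the myeloid lysozyme gene Lyz2 overlapped between the diets (1144, 1120 and 975 against 850, 1001 and 992). Erythroid markers (14 of 14 tested) and neutrophil markers (12 of 14) were higher, and B cell (11 of 12) and dendritic cell markers (13 of 15) lower. Of 9 plasma cell markers tested, 5 were higher and 1 lower. By the same test, described below, 30.3% of all genes tested were higher and 28.1% lower. Cd209a, a dendritic cell lectin, was at 0 in all MCDHFD libraries.

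Most of the lysosomal genes were higher in MCDHFD. Of the 41 genes, 40 had a mean of at least 10 normalized counts and were tested, and 30 of these were higher in MCDHFD at an adjusted p under 0.05 in limma, against 30.3% of all 13430 genes tested. In the other direction, 4 were lower (Npc2, Galns, Arsb and Ppt1), against 28.1% of all genes tested. None of the 4 stayed lower when libraries were scaled to equal CD8 T cell markers. That scaling moves the median of all genes by 0.97, more than each of the 4 changes, so it cannot test these calls. Without ND replicate 2 or without ND replicate 3 the number lower was 2. The other 6 genes did not pass (Mcoln1, Arsa, Smpd1, Idua, Sgsh and Tfeb). The median log2 fold change of the 40 was 0.59, beside 0.00 for all genes tested, and the range ran from -0.90 (Arsb) to 2.22 (Asah1). At least a doubling was reached by 14 of the 40, against 13.1% of all genes tested. For 30 of the 40, every MCDHFD library lay above every ND library, which held for 33.2% of all genes tested. For 3 of the 40 every MCDHFD library lay below every ND library, which held for 32.3% of all genes tested. In bulk RNA, fewer cells of a type and less RNA per cell cannot be told apart, and the part of macrophage RNA in these counts was not tested.

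**Figure D1:**
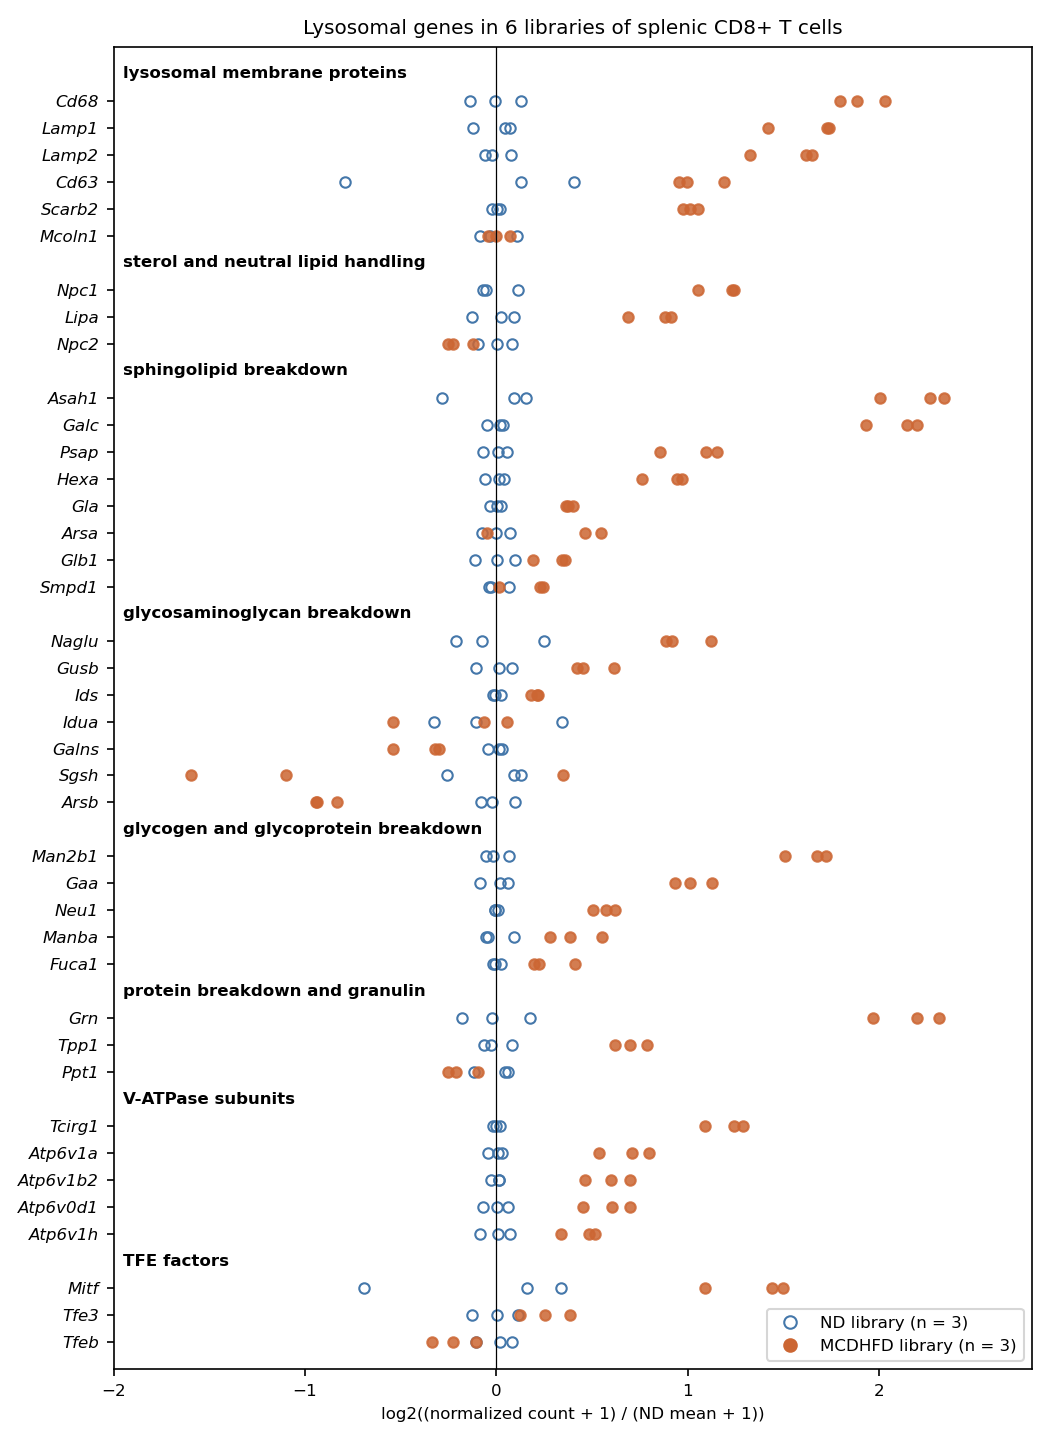
Each row is 1 of the 40 tested genes, grouped by role, and each point 1 library; the x axis is the log2 ratio of its normalized count plus 1 to the ND mean plus 1. The filled MCDHFD points lie to the right of the open ND points for 30 genes, and Sgsh in MCDHFD has the widest spread within a diet, followed by Cd63 and Mitf in ND.

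Together the 41 genes made up 0.497%, 0.548% and 0.536% of the normalized counts in the ND libraries. In the MCDHFD libraries they made up 0.928%, 1.08% and 1.05%, so the ranges did not overlap and the means differed 1.93-fold. The ratio was 1.9 when Psap, the gene with the highest counts, was left out. The macrophage and monocyte markers differed 4.63-fold on the same measure and the CD8 T cell markers 0.546-fold. MCDHFD replicate 1 had the lowest value of its diet for 26 of the 30 genes that were higher, and for 22 of the 25 macrophage and monocyte markers. The share over all genes tested was not counted. Erythroid and neutrophil markers also had their lowest summed share of the diet there (0.103% and 0.077%, beside 0.173% and 0.129% in replicate 2). The CD8 T cell and dendritic cell markers had their highest share of the diet there. ND replicate 1 had the lowest value of its diet for 19 of those 30 genes and for 19 of the 25 markers.

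**Figure D2:**
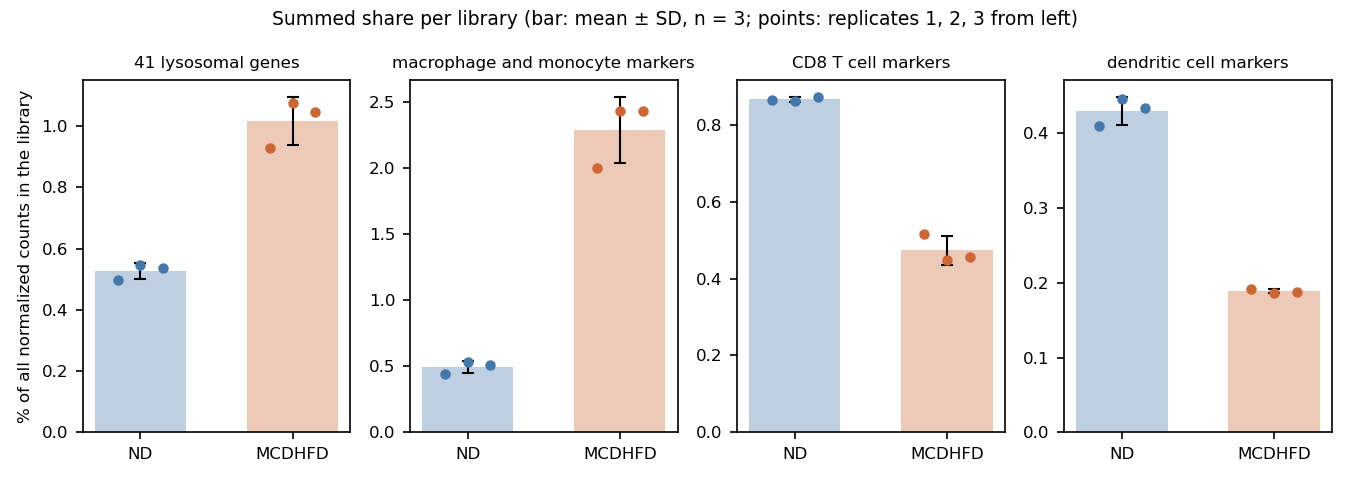
Summed share of all normalized counts, in percent, for the 41 lysosomal genes and 3 marker lists; bars are means ± SD of 3 libraries per diet and points are the libraries. The lysosomal genes have a mean of 0.527% in ND and 1.02% in MCDHFD and the macrophage and monocyte markers 0.494% and 2.29%, while the CD8 T cell and dendritic cell markers are lower in MCDHFD.

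Promoter sequence was examined because the TFE factors bind the E-box letters CACGTG, a palindrome. RefSeq promoter windows on GRCm38.p6, running from 250 bases before to 50 after a transcript start, were matched by symbol for 35 of the 41 genes. CACGTG was present in 10 of these 35 genes (28.6%), in 8.09% of the 27025 genes with a window and in 11.7% of the 9813 tested genes with one, each gene counted over all of its windows. The longer form TCACGTGA, which contains CACGTG, was present in 4 genes (Mcoln1, Gla, Atp6v0d1 and Atp6v1a), 11.4% of the 35, beside 2.21% of the tested genes. The M-box letters TCATGTG, read on both strands and known from Mitf target genes, were present in 5 genes (Scarb2, Gla, Tpp1, Ppt1 and Grn), 14.3%, beside 2.77% of the tested genes. GAGGAAGT, letters bound by the myeloid factor PU.1 and also read on both strands, was present in Gusb and Gla, 5.71%, beside 4.18%. These matches describe letters and not bound sites.

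The windows below are read 5′ to 3′ on each gene's own strand, with E-box or M-box letters in capitals. The first 3 are shown because the letters recur within one promoter. Lamp1 holds CACGTG 4 times in 76 bases (chr8:13159088-13159163, plus strand), Gla holds it on both sides of an M-box (chrX:134601182-134601244, minus strand), and Mcoln1 holds it 2 times (chr8:3500436-3500491, plus strand).
Lamp1: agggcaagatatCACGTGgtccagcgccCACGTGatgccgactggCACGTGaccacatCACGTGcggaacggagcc
Gla: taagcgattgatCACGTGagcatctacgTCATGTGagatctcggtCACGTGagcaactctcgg
Mcoln1: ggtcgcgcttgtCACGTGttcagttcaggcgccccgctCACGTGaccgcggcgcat
The next 6 are shown because they span the range of responses among genes with such letters: a pair of V-ATPase subunits, Gaa and Naglu, which were higher in MCDHFD, Sgsh, which did not pass, and Grn, whose letters are an M-box on the other strand. Their positions are chr8:105566050-105566079 (Atp6v0d1, minus strand), chr16:44139373-44139402 (Atp6v1a, minus), chr11:119267811-119267840 (Gaa, plus), chr11:101070009-101070038 (Naglu, plus), chr11:119355522-119355551 (Sgsh, minus) and chr11:102430286-102430314 (Grn, plus).
Atp6v0d1: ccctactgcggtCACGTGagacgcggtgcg
Atp6v1a: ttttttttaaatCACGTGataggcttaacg
Gaa: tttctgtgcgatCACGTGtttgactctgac
Naglu: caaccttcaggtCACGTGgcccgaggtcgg
Sgsh: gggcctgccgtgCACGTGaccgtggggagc
Grn: gattctctaatCACATGAtccctagaaat

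Genes with and without the E-box letters covered overlapping ranges of response. Of the 10 genes with CACGTG, 7 were higher, none was lower and 3 did not pass (Mcoln1, Arsa and Sgsh), with a median log2 fold change of 0.48. Of the 25 genes with a window but without these letters, 19 were higher, 3 lower and 3 did not pass, with a median of 0.70. No test was made of this split. The range is wide within the E-box genes: Lamp1, with 4 copies, had a log2 fold change of 1.63, and Mcoln1, with 2 copies, one of 0.01.

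**Figure D3:**
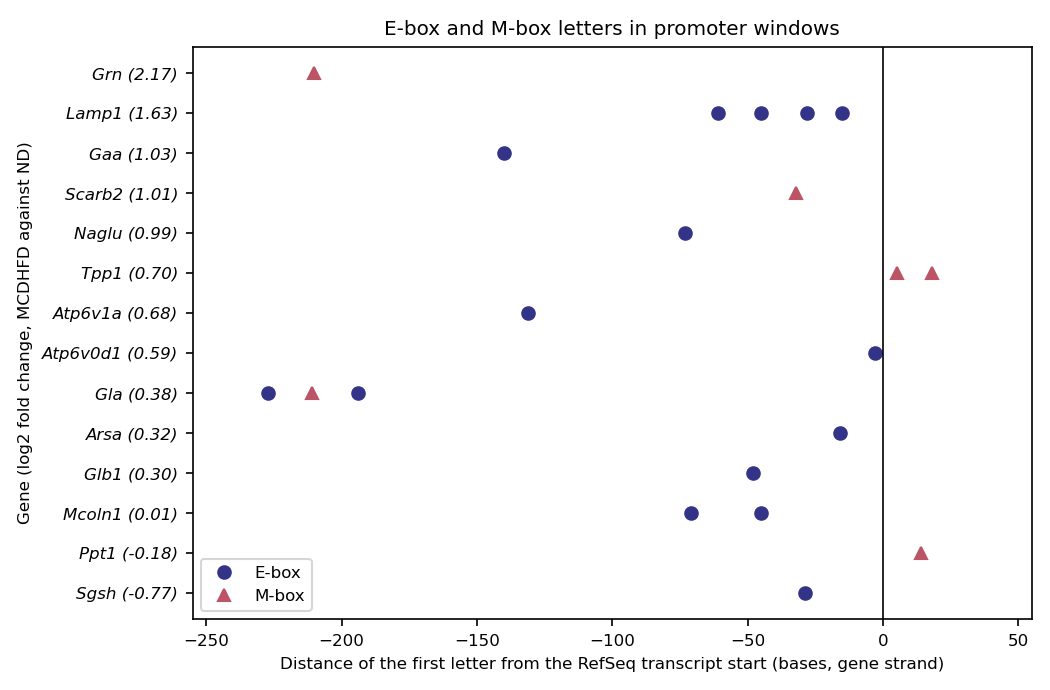
Position of E-box (circles) and M-box (triangles) letters relative to the RefSeq transcript start, in bases on the gene's strand, for the 14 genes that hold either; genes are ordered by log2 fold change, given in brackets. The 4 circles of Lamp1 lie within 61 bases before the start, and those of Mcoln1 within 71.

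Among the lysosomal membrane proteins, 5 of 6 were higher in MCDHFD (30.3% of all genes tested). All 5 at least doubled (13.1% of all), with a median log2 fold change of 1.33 over the 6. Lamp1, one of the main glycoproteins that line the lysosomal membrane and which also reaches the surface of T cells when granules are released (chr8:13159161-13175338 on mm10), stood at 3673, 4120 and 4191 normalized counts in ND and at 10684, 13239 and 13358 in MCDHFD. The lowest MCDHFD library lay well above the highest ND library, and the log2 fold change was 1.63 ± 0.09 (SE), with an adjusted p of 1.35e-06. Lamp2, its partner glycoprotein and a receptor for chaperone-mediated autophagy, stood at 812, 871 and 791 in ND and at 2070, 2530 and 2589 in MCDHFD. Its groups did not overlap either (log2 fold change 1.53 ± 0.09, adjusted p 1.52e-06). Cd68, a lamp family member typical of macrophages (chr11:69664213-69666153), stood at 1087, 1308 and 1192 in ND and at 4163, 4420 and 4900 in MCDHFD, a log2 fold change of 1.91 ± 0.08 and an adjusted p of 3.58e-07. It had the largest fold change of the 6.

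Scarb2, the receptor that carries glucocerebrosidase to lysosomes, was among the most even of the 41 within each diet, at 1746, 1730 and 1699 in ND and 3398, 3480 and 3586 in MCDHFD. That is a log2 fold change of 1.01 ± 0.05 and an adjusted p of 5.14e-07. Cd63, a tetraspanin of late endosomes and granules, was low: 30.4, 71.0 and 58.4 in ND and 107, 123 and 104 in MCDHFD. ND replicate 1 was the lowest library, and the log2 fold change was 1.13 ± 0.29, with an adjusted p of 0.00852. Mcoln1, the lysosomal calcium channel TRPML1, stood at 894, 928 and 1025 in ND and at 947, 921 and 997 in MCDHFD. Its groups overlapped throughout, and the 95% interval of the log2 fold change ran from -0.15 to 0.17.

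Of the 3 genes for sterol and neutral lipid handling, Npc1 and Lipa were higher and Npc2 was slightly lower. Npc1, the membrane protein that moves cholesterol out of lysosomes, stood at 1077, 1087 and 1223 in ND and at 2350, 2652 and 2669 in MCDHFD (log2 fold change 1.18 ± 0.07, adjusted p 2.29e-06). Lipa, the acid lipase that splits cholesteryl esters and triglycerides, stood at 1811, 2105 and 2006 in ND and at 3178, 3634 and 3715 in MCDHFD (log2 fold change 0.83 ± 0.08, adjusted p 2.8e-05). Both sets of libraries were clear of each other for these genes. Npc1 shares 4.52% of its exon length with Rmc1 on the opposite strand, which had a mean of 1415 normalized counts. Npc2, the soluble protein that hands cholesterol to Npc1, stood at 6341, 7164 and 6793 in ND and at 5786, 6221 and 5690 in MCDHFD. The groups did not overlap, but the gap was small: the log2 fold change was -0.20 ± 0.06 with an adjusted p of 0.0226. The call on Npc2 was lost without MCDHFD replicate 3 (adjusted p 0.0815), ND replicate 2 (0.091) or ND replicate 3 (0.0638), and the direction turned to 0.77 when libraries were scaled to equal CD8 T cell markers, which moves the median of all genes by 0.97.

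Sphingolipid breakdown held the gene with the largest change and the gene with the highest level. Of its 8 genes 6 were higher (30.3% of all genes tested), none was lower (28.1% of all) and 2 did not pass. The median log2 fold change was 0.64. Asah1, acid ceramidase (chr8:41340197-41374773), stood at 841, 1137 and 1088 in ND and at 4112, 5178 and 4915 in MCDHFD. Replicate 1 was the lowest library in both diets, and the difference between diets was far wider than that spread, with a log2 fold change of 2.22 ± 0.12 and an adjusted p of 1.16e-06. Galc, the enzyme that removes galactose from galactosylceramide (chr12:98202294-98259459), stood at 267.3, 254.9 and 270.2 in ND and at 1012, 1175 and 1216 in MCDHFD. The ND libraries were almost level, and the log2 fold change was 2.09 ± 0.09, with an adjusted p of 2.47e-07.

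Psap, the precursor of the saposins that help enzymes reach their lipid substrates (chr10:60277627-60302597), stood at 24465, 26635 and 25830 in ND and at 46439, 56997 and 54815 in MCDHFD, a log2 fold change of 1.04 ± 0.08 and an adjusted p of 1.14e-05. Hexa, a subunit of hexosaminidase, stood at 1301, 1368 and 1393 in ND and at 2297, 2609 and 2655 in MCDHFD (log2 fold change 0.89 ± 0.07, adjusted p 7.16e-06). Smaller differences were found for Gla, alpha-galactosidase A, with 375 to 391 in ND and 493 to 507 in MCDHFD (log2 fold change 0.38 ± 0.07, adjusted p 0.00136), and for Glb1, beta-galactosidase, with 569 to 657 in ND and 701 to 787 in MCDHFD (0.30 ± 0.08, adjusted p 0.0105). In both the diets did not overlap, and Glb1 shares 5.49% of its exon length with Tmppe on the same strand.

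Arsa and Smpd1 turned on a single library. Arsa, arylsulfatase A, stood at 353, 319 and 337 in ND and at 326, 492 and 464 in MCDHFD, so MCDHFD replicate 1 lay within the ND range (log2 fold change 0.32 ± 0.15, adjusted p 0.0903). It shares 18.8% of its exon length with C230037L18Rik on the opposite strand. Without that library the log2 fold change was 0.51 and the adjusted p 0.00186. Smpd1, acid sphingomyelinase, stood at 435, 467 and 438 in ND and at 451, 529 and 524 in MCDHFD, again with MCDHFD replicate 1 inside the ND range. Its adjusted p was 0.133 with all libraries and 0.0312 without that one.

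In glycosaminoglycan breakdown, 3 of 7 genes were higher, 2 were lower on the deposited scale and 2 did not pass. Over all genes tested, 30.3% were higher and 28.1% lower, so the lower count is near that share. The median log2 fold change of the 7 genes was -0.16. Their summed share of the normalized counts was 0.0329%, 0.0375% and 0.0360% in ND and 0.0383%, 0.0316% and 0.0336% in MCDHFD, so the diets overlapped. Naglu, alpha-N-acetylglucosaminidase, stood at 270, 339 and 246 in ND and at 539, 621 and 527 in MCDHFD (log2 fold change 0.99 ± 0.13, adjusted p 0.000177). Gusb, beta-glucuronidase, stood at 943, 1022 and 1074 in ND and at 1356, 1389 and 1554 in MCDHFD (0.50 ± 0.08, adjusted p 0.000454). Ids, iduronate sulfatase, differed less, with 976, 986 and 1004 in ND and 1147, 1149 and 1121 in MCDHFD (0.20 ± 0.05, adjusted p 0.00915), and its adjusted p was 0.06 under quantile scaling.

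Arsb and Galns, which were lower, are sulfatases, as are Ids and Sgsh. Arsb, arylsulfatase B, which acts on dermatan and chondroitin sulfate (chr13:93771630-93943016), stood at 897, 827 and 794 in ND and at 471, 436 and 437 in MCDHFD. The highest MCDHFD library lay far below the lowest ND library, and the log2 fold change was -0.90 ± 0.07 with an adjusted p of 1.14e-05. With CD8 T cell markers held equal the value for Arsb was 0.07 (adjusted p 0.479). It shares 32.3% of its exon length with Gm26527 on the opposite strand, which had a mean of 0.966 normalized counts. Galns, which removes sulfate from keratan and chondroitin sulfate (chr8:122578242-122611463), stood at 372, 387 and 392 in ND and at 312, 308 and 264 in MCDHFD, a log2 fold change of -0.39 ± 0.09 and an adjusted p of 0.00625; it was 0.59 with CD8 T cell markers held equal.

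Sgsh, a sulfatase of heparan sulfate, had the widest spread of the 40 tested genes within a diet. It stood at 778, 992 and 1019 in ND and at 1186, 307 and 433 in MCDHFD, so MCDHFD replicate 1 was the highest of all 6 libraries and the other MCDHFD libraries were the lowest. The log2 fold change was -0.77 ± 0.41 (adjusted p 0.137), and without MCDHFD replicate 1 it was -1.34 (adjusted p 0.000355). Idua, alpha-L-iduronidase, stood at 472, 752 and 550 in ND and at 567, 406 and 614 in MCDHFD. Its diets overlapped, the 95% interval of the log2 fold change ran from -0.60 to 0.28, and it shares exon bases with Dgkq on the opposite strand.

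All 5 genes of glycogen and glycoprotein breakdown were higher (30.3% of all genes tested), with a median log2 fold change of 0.56. For all 5 every MCDHFD library lay above every ND library, which held for 33.2% of all genes tested. Man2b1, lysosomal alpha-mannosidase (chr8:85083270-85098282), stood at 5064, 5189 and 5498 in ND and at 14945, 17336 and 16805 in MCDHFD. That is a log2 fold change of 1.64 ± 0.07 and an adjusted p of 2.51e-07. Gaa, the acid glucosidase that degrades glycogen, stood at 844, 933 and 909 in ND and at 1710, 1808 and 1959 in MCDHFD (1.03 ± 0.07, adjusted p 3.57e-06). Neu1, a sialidase, stood at 1321, 1334 and 1321 in ND, the tightest ND libraries of the 5, and at 2036, 1971 and 1880 in MCDHFD (0.56 ± 0.05, adjusted p 2.54e-05). The smallest differences in the group were those of Manba, beta-mannosidase, with 368 to 408 in ND and 464 to 562 in MCDHFD (0.41 ± 0.09, adjusted p 0.00473), and Fuca1, a fucosidase, with 1006 to 1036 and 1170 to 1356 (0.28 ± 0.07, adjusted p 0.00758).

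In the group of protein breakdown and granulin, Grn and Tpp1 were higher and Ppt1 slightly lower. Grn, progranulin, a secreted growth factor that lysosomes cut into granulins (chr11:102430315-102437048), stood at 1458, 1864 and 1623 in ND and at 6455, 8202 and 7562 in MCDHFD. Replicate 1 was lowest in each diet, and the log2 fold change was 2.17 ± 0.11 with an adjusted p of 6.29e-07, the second largest of the 40 after Asah1. Tpp1, a protease that trims tripeptides, stood at 1564, 1735 and 1608 in ND and at 2514, 2652 and 2822 in MCDHFD (0.70 ± 0.06, adjusted p 2.22e-05). Ppt1, which removes palmitate from proteins, stood at 2308, 2577 and 2611 in ND and at 2162, 2098 and 2338 in MCDHFD. The highest MCDHFD library exceeded the lowest ND library, and the adjusted p of 0.0424 (log2 fold change -0.18 ± 0.07) was lost when MCDHFD replicate 1 (0.0881), MCDHFD replicate 2 (0.126), ND replicate 2 (0.127) or ND replicate 3 (0.138) was left out. The direction turned to 0.79 with CD8 T cell markers held equal, and 3.51% of the exon length of Ppt1 overlaps Cap1, an abundant gene on the opposite strand.

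Of the 6 V-ATPase subunits among the 41 genes, all 5 that were tested were higher (30.3% of all genes tested). For these 5 every MCDHFD library lay above every ND library, which held for 33.2% of all genes tested. Their median log2 fold change was 0.59. Tcirg1, the a3 subunit of the membrane sector known from osteoclasts and macrophages (chr19:3896050-3907133), stood at 1657, 1610 and 1629 in ND and at 3476, 3986 and 3857 in MCDHFD. It had the largest difference of the 5, at 1.21 ± 0.06 with an adjusted p of 6.96e-07. The other tested subunits lay closer together. Atp6v1a, the catalytic subunit, stood at 757 to 797 in ND and 1132 to 1354 in MCDHFD (0.68 ± 0.08, adjusted p 6.92e-05). Atp6v1b2, its partner in the catalytic ring, stood at 1244 to 1282 and 1752 to 2062 (0.59 ± 0.07, adjusted p 8.85e-05). Atp6v0d1, which joins the membrane sector to the rotor stalk, stood at 847, 879 and 805 in ND and at 1154, 1372 and 1283 in MCDHFD (0.59 ± 0.08, adjusted p 0.000188). Atp6v1h, a regulatory subunit, stood at 682, 652 and 612 and at 822, 908 and 928 (0.45 ± 0.07, adjusted p 0.000795).

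Atp6v0d2, the isoform of Atp6v0d1 known from osteoclasts and some macrophages, was close to undetected. It had 3, 4 and 3 reads in the ND libraries and 0 reads in each MCDHFD library, where a count of 0 allows up to 2.82 to 3.36 normalized counts. Its mean was below the filter, so it is not among the 40 tested genes. In the limma fit without a filter its adjusted p was 0.00449, lower in MCDHFD, on these few reads, and no fold change is given.

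Of the TFE factors, Mitf and Tfe3 were higher and Tfeb did not pass. Mitf (chr6:97807052-98021349), a master regulator of melanocytes and osteoclasts, stood at 56.8, 103 and 117 in ND and at 198, 253 and 263 in MCDHFD. All MCDHFD libraries were above all ND libraries, ND replicate 1 was lowest, and the log2 fold change was 1.41 ± 0.26 with an adjusted p of 0.00137. Tfe3 (chrX:7762560-7775202) stood at 680, 734 and 620 in ND and at 739, 808 and 885 in MCDHFD. Its libraries nearly touched, and the adjusted p of 0.0354 (log2 fold change 0.26 ± 0.09) rose above the threshold without ND replicate 1 (0.0712), ND replicate 3 (0.123), MCDHFD replicate 2 (0.0751) or MCDHFD replicate 3 (0.123). Tfeb (chr17:47737030-47792419) stood at 461, 443 and 405 in ND and at 345, 373 and 406 in MCDHFD. The highest MCDHFD library matched the lowest ND library, the log2 fold change was -0.22 ± 0.09 and the adjusted p 0.0659; without MCDHFD replicate 3 it was 0.0427, and with CD8 T cell markers held equal the log2 fold change was 0.75. Per kilobase of exon, Tfeb and Tfe3 were at 76.9 ± 5.1 and 73.2 ± 6.2 normalized counts in ND (SD, n = 3), which did not differ beyond their spread, and at 66.1 ± 5.4 and 87.5 ± 7.9 in MCDHFD. Mitf was at 14.9 ± 5.1 and 38.4 ± 5.7, below both in each diet.

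The order of levels between genes was read per kilobase of exon, taken as the combined length of all annotated exons of a gene. The order therefore depends on the annotation. Psap was first in both diets, at 9345 ± 400 normalized counts per kilobase in ND and 19224 ± 2031 in MCDHFD (SD, n = 3), and Lamp1 second, at 1493 ± 105 and 4646 ± 565. Npc2 held rank 3 in ND at 1244 ± 76 and rank 8 in MCDHFD at 1085 ± 52. Grn moved from rank 8 (474 ± 59) to rank 4 (2132 ± 254), next to Man2b1 (2039 ± 156), from which it did not differ beyond the spread. Asah1 moved from rank 14 (302 ± 47) to rank 6 (1397 ± 164). Cd63, Mitf and Galc were the lowest of the tested genes in ND, at 14.5 ± 5.7, 14.9 ± 5.1 and 17.8 ± 0.5 per kilobase. Galc had a mean of 264 normalized counts in ND over 14879 exon bases, and Cd63 53.25 over 3682.

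**Figure D4:**
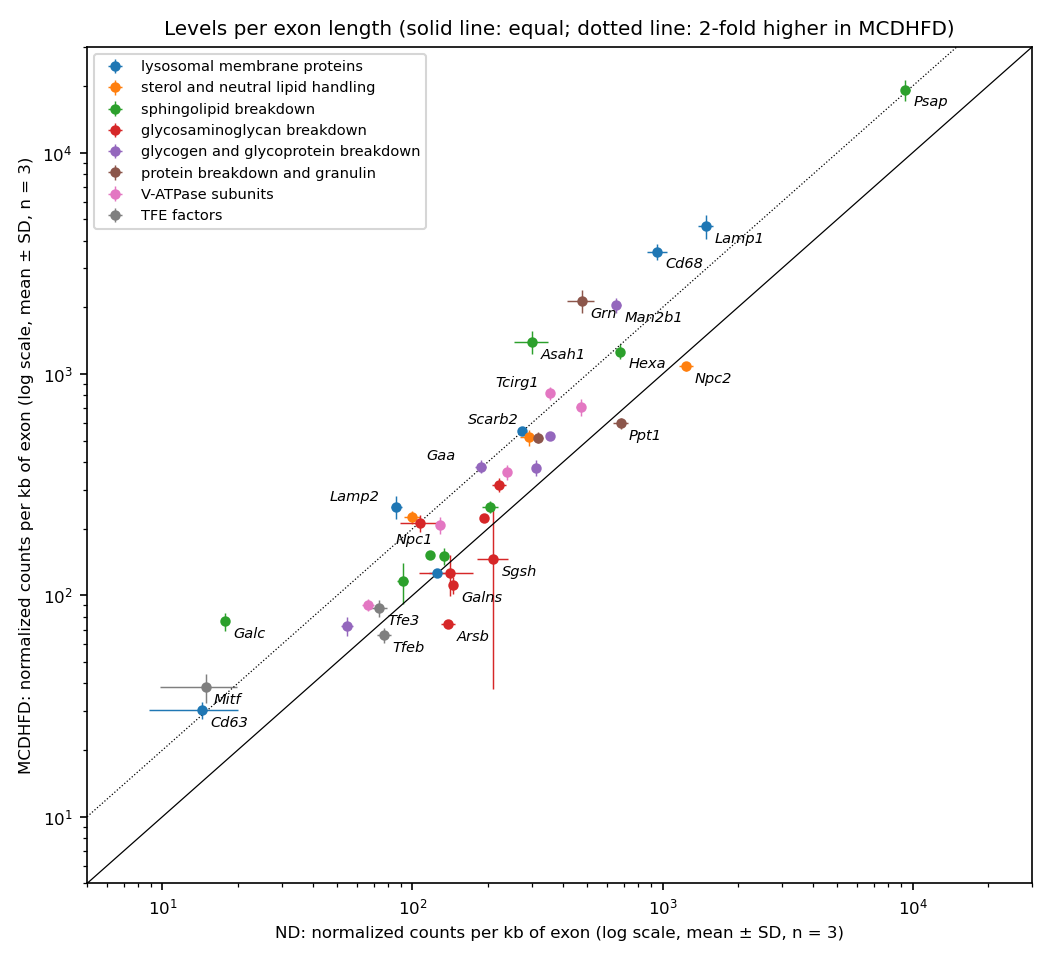
Normalized counts per kilobase of exon in ND (x axis) and MCDHFD (y axis), both log scales, mean ± SD of 3 libraries, for the 40 tested genes coloured by role. Asah1, Grn, Galc and Cd68 lie farthest above the line of equality, Arsb lies farthest below it on the deposited scale among genes that passed the test, and the long vertical bar belongs to Sgsh.

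Other genes of the same organelle were read from 6 lists named by role. The lower counts given for them hold on the deposited scale. With CD8 T cell markers held equal each fell to 0, except 1 gene among the membrane proteins and transporters, Mcoln3. That scaling moved the median of all genes by 0.97, and the lower calls over all genes went from 3772 to 481. It therefore cannot test lower calls of about that size or less, in this list or in those below. Among 13 other V-ATPase subunits and accessory proteins tested, 8 were higher, 2 lower and 3 did not pass (30.3% and 28.1% of all genes tested were higher and lower), with a median log2 fold change of 0.39. The largest differences were those of Atp6v0a1, a membrane-sector a subunit (162, 183 and 244 in ND; 325, 412 and 447 in MCDHFD; log2 fold change 1.01 ± 0.17, adjusted p 0.000915), and Atp6ap2, an assembly factor (960 to 977 and 1632 to 2049; 0.91 ± 0.08, adjusted p 1.96e-05). Atp6ap1 and Atp6v0c, an accessory subunit and the proteolipid ring subunit, followed at 0.59 ± 0.05 and 0.54 ± 0.08. Atp6v0a2, another a subunit and the gene with the highest counts of this list, went the other way, with 2077, 2019 and 2013 in ND and 1557, 1758 and 1517 in MCDHFD (-0.34 ± 0.07, adjusted p 0.00189), and was 0.63 with CD8 T cell markers held equal. The a subunits therefore differed in direction: Tcirg1 and Atp6v0a1 were higher and Atp6v0a2 lower on the deposited scale.

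Of 25 other lysosomal enzymes and cofactors 15 were higher (30.3% of all genes tested), 2 lower (28.1% of all) and 8 did not pass, with a median of 0.55. Pcyox1, an oxidase that degrades prenylcysteine, stood at 536, 595 and 554 in ND and at 3223, 3543 and 3583 in MCDHFD, a log2 fold change of 2.62 ± 0.07, larger than that of any of the 40 tested genes described above, with an adjusted p of 5.65e-08. Pla2g15, the lysosomal phospholipase A2, and Dnase2a, the nuclease that digests engulfed DNA, had log2 fold changes of 2.04 ± 0.08 (adjusted p 1.8e-07) and 1.67 ± 0.16 (adjusted p 2.48e-05). Acp5, tartrate-resistant acid phosphatase, stood at 4487 to 4679 in ND and 6226 to 7068 in MCDHFD (0.55 ± 0.06, adjusted p 5.53e-05).

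Of 27 other lysosomal membrane proteins and transporters 15 were higher (30.3% of all genes tested), 5 lower (28.1% of all) and 7 did not pass, with a median of 0.30. Slc15a3, a peptide and histidine transporter, stood at 401, 525 and 438 in ND and 2249, 2078 and 1982 in MCDHFD (2.21 ± 0.10, adjusted p 4.22e-07). Slc11a1, the metal transporter of phagosomes, stood at 1101, 1413 and 1340 and at 4538, 5584 and 5794 (2.04 ± 0.11, adjusted p 1.18e-06), and Slc36a1, an amino acid transporter, at 239, 548 and 252 and at 1062, 933 and 1001 (1.63 ± 0.27, adjusted p 0.000839). Mcoln3, a relative of Mcoln1, fell from 130, 127 and 109 to 41.4, 22.6 and 23.5 (-2.08 ± 0.25, adjusted p 0.000116), whereas Mcoln1 itself did not pass. Laptm5, a membrane protein of blood cell lysosomes, had the highest counts of the list, with 15510 to 16852 and 18998 to 20761 (0.28 ± 0.06, adjusted p 0.00354, but 0.0539 under quantile scaling). Sidt2, a transporter of nucleic acids, had overlapping diets (6721 to 7538 and 7499 to 7714).

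Of 19 genes that deliver enzymes to lysosomes 8 were higher (30.3% of all genes tested), 4 lower (28.1% of all) and 7 did not pass, with a median of 0.15. Sort1, sortilin, a sorting receptor for prosaposin and progranulin, stood at 775, 973 and 918 in ND and at 4461, 5409 and 5592 in MCDHFD (2.53 ± 0.11, adjusted p 2.79e-07). Plekhm2, which couples lysosomes to kinesin, stood at 880 to 942 and 1971 to 2198 (1.19 ± 0.06, adjusted p 7.32e-07). M6pr, the cation-dependent mannose 6-phosphate receptor, differed little (2872 to 2951 and 3302 to 3670; 0.25 ± 0.05, adjusted p 0.00368). Gnptg, a subunit of the enzyme that makes the mannose 6-phosphate tag, and Ap3b1, a coat subunit for lysosomal cargo, were lower, at -0.54 ± 0.07 (adjusted p 0.00013) and -0.50 ± 0.06 (adjusted p 7.06e-05), and reached 0.43 and 0.47 with CD8 T cell markers held equal.

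Genes around the control of the TFE factors by mTORC1 and calcineurin were 11 higher, 6 lower and 5 not passing of 22, beside 30.3% higher and 28.1% lower over all genes tested, and their median was 0.21. Tfec, the remaining relative of Tfeb, Tfe3 and Mitf and a factor known from macrophages, stood at 71.5, 74.9 and 74.2 in ND and at 386, 454 and 501 in MCDHFD (2.58 ± 0.12, adjusted p 5.11e-07). Per kilobase it went from 13.2 ± 0.3, below Tfeb and Tfe3, to 79.9 ± 10.4 in MCDHFD (SD, n = 3), beside 66.1 ± 5.4 for Tfeb and 87.5 ± 7.9 for Tfe3. Rragd and Rragc, GTPases that bring TFE factors to mTORC1 on the lysosome, had log2 fold changes of 1.90 ± 0.15 (63.4 to 72.4 in ND and 216 to 304 in MCDHFD, adjusted p 1.06e-05) and 0.87 ± 0.09 (adjusted p 3.83e-05). Fnip2, a folliculin partner that acts on these GTPases, stood at 139 to 157 and 456 to 512 (1.70 ± 0.09, adjusted p 1.16e-06). Ppp3r1, the calcineurin regulatory subunit, stood at 1933 to 2037 and 2589 to 2967 (0.50 ± 0.06, adjusted p 0.000168), and Tsc1, a restraint on mTORC1, at 1320 to 1357 and 1299 to 1404 (0.01 ± 0.06, adjusted p 0.931).

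Of 21 autophagy genes 10 were higher, 6 lower and 5 did not pass, beside 30.3% higher and 28.1% lower over all genes tested, and the median of 0.08 was the nearest to that of all genes among the 6 lists. Wipi1, which binds phosphoinositides on forming autophagosomes, was low in ND (9.79, 5.84 and 21.8) and stood at 77.2, 124 and 140 in MCDHFD (3.23 ± 0.43, adjusted p 0.000231). Optn, an autophagy receptor, stood at 49.6 to 77.2 and 190 to 235 (1.64 ± 0.19, adjusted p 9.07e-05), and Gabarapl1, which is joined to autophagosome lipid, at 247 to 261 and 578 to 675 (1.32 ± 0.09, adjusted p 2.72e-06). Sqstm1, the p62 receptor, stood at 4549, 3544 and 4888 and at 6398, 6330 and 6303 (0.56 ± 0.11, adjusted p 0.0016). Atg16l2 was lower, with 425 to 509 in ND and 172 to 230 in MCDHFD (-1.19 ± 0.13, adjusted p 5.1e-05), and so was Tecpr1, a tether between autophagosomes and lysosomes, with 5467 to 5712 and 4098 to 4870 (-0.34 ± 0.07, adjusted p 0.00266), which was 0.63 with CD8 T cell markers held equal.

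**Figure D5:**
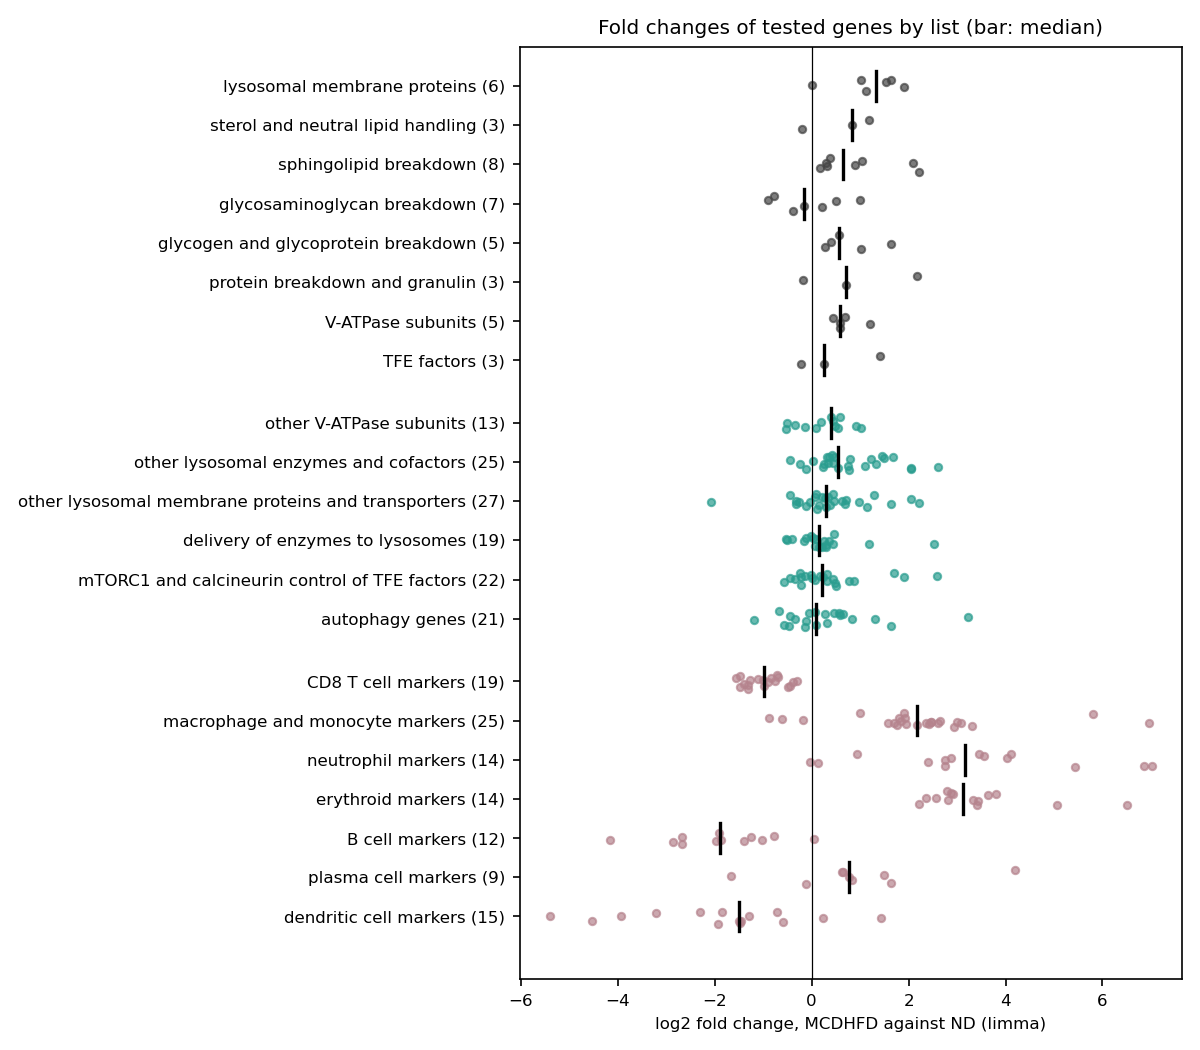
Log2 fold changes, MCDHFD against ND, of the tested genes in the 8 roles of the 41 genes (grey), 6 further lysosomal lists (green) and 7 marker lists (pink); each point is a gene, bars are medians and brackets give the number tested. The medians are highest for membrane proteins among the roles (1.33), and those of the macrophage and monocyte (2.17), neutrophil (3.16) and erythroid markers (3.12) lie beyond every lysosomal list, while CD8 T cell markers lie at -0.98.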

How the data were processed

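RNA-seq of 6 libraries of splenic CD8+ T cells was analysed, 3 ND and 3 MCDHFD, grouped by the diet in their labels. Per the labels' protocols, total RNA went into either of a pair of kits, one for whole RNA and one for mRNA, with no record of which library had which. Per the submitters' processing notes the build is mm10. The aligner, annotation, counter and strandedness were not given in the sources used here, and overlapping genes cannot be told apart.

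The deposited values are a signal, normalized counts that the authors obtained by scaling, per the file headers. All values were whole multiples of 1 read per library (100% at a tolerance of 0.01), which gave the reads for the count tests. Symbols, coordinates and exon lengths came from GENCODE M21 on mm10, matched by Ensembl identifier for 19202 of 19323 genes, and promoter windows from RefSeq on GRCm38.p6.

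Genes with a mean of at least 10 (13430) were tested with limma 3.58.1 with an intensity trend, in R 4.3.3, on log2 of the value plus 1, with diet as the only term and Benjamini-Hochberg adjustment over all of them at 0.05. Fold changes are on that log2(value + 1) scale, so those of low genes depend on the added value. They can be smaller or larger in size than in the edgeR count test: Cd209a was -5.40 and -8.39 in edgeR, Cd63 1.13 and 1.05. Intervals are 95% intervals from the limma SE. The procedure was tested on simulated data. Alternatives were other pseudocounts, filters, scalings, thresholds, library quality weights, a block on replicate number, leaving out each library, and count tests of the recovered reads with DESeq2 1.42.0 and edgeR 4.0.16. No same-diet pair agreed within sampling noise (chi-square per degree of freedom 6.11 to 11.5).

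The members and lists were chosen with earlier results of these data known. All 41 genes may be named. Of each further lysosomal list, up to 4 genes of the largest change that passed with no overlap between diets and the 2 of the highest mean could be named. Of the marker lists Cd3e, Cd8a, Adgre1, Csf1r, Vcam1, Lyz2 and those at 0 could be named, and Cd3e and Adgre1 are not described above. A gene that this rule names is withheld and not reported here. Of 10 plasma cell markers 9 were tested, of which 5 were higher and 1 lower.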

Additional observations from a re-analysis of the deposited data

How the results depend on the processing

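Of the 30 genes called higher, 28 kept direction and call under all 17 alternative fits; the exceptions were Ids (quantile scaling) and Tfe3. None of the 4 lower calls held under all of them. Among these fits, Arsb and Galns lost the call only with CD8 T cell markers held equal. Requiring a log2 change of at least 1 left 14 higher and 0 lower, and an adjusted p under 0.01 left 2 lower. With CD8 T cell markers held equal, 38 genes were higher and 0 lower, and 7 values turned positive: Sgsh 0.20, which did not pass either way, Npc2 0.77, Idua 0.81, Galns 0.59, Arsb 0.067, Ppt1 0.79 and Tfeb 0.75. That scaling turned the calls over all genes to 11005 higher and 481 lower (95.8% higher, beside 51.9%). Quantile scaling gave 3552 higher and 4557 lower, and Npc2 (adjusted p 0.0617) and Tfe3 (0.104) no longer passed while Tfeb (0.0164) did. Leaving out 1 library gave 29 to 32 higher and 2 to 4 lower. With library quality weights Arsa (adjusted p 0.0214) and Sgsh (0.0292) passed, and with no filter Ppt1 (0.0552) did not, while Atp6v0d2 (0.00449) was tested and called lower. edgeR called 4005 genes higher and 3858 lower and DESeq2 3814 and 3473, with no change for the 40 genes. Same-numbered libraries of the 2 diets had correlations of 0.036, 0.062 and 0.006 in their deviations, and the other pairs had -0.057 to 0.02. With 3 libraries a diet, these values cannot tell whether same-numbered libraries shared more than a number. The replicate block gave 29 higher and 4 lower (Tfe3 adjusted p 0.0515). Genes near a few reads, such as Atp6v0d2, are limited by depth, and with 3 libraries a diet small differences such as those of Npc2, Ppt1, Tfe3 and Tfeb lie at the edge of what the spread allows.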
